A study of Homo sapiens with 8 samples.

Results

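The mRNAs described here encode 36 proteins of the human lysosome and of the factors that regulate its genes. They comprise 8 subunits of the V1 sector of the vacuolar H+-ATPase (V-ATPase), 7 subunits and accessory proteins of its V0 sector, 11 lysosomal hydrolases and their activators, 7 lysosomal membrane and lipid-transfer proteins, and the 3 MiT transcription factors TFEB, TFE3 and MITF. The genes were taken by symbol from a list with no threshold on a measured value, although earlier results of these data were known when the list was drawn up. Of the 36 genes, 35 were listed in at least 1 library, among 12235 genes or unnamed transcripts listed in any library. CTSZ, a cysteine carboxypeptidase of the lysosome, was the gene listed in none.

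Footprints were sequenced from HEK293T cells, an established line of human embryonic kidney origin that carries the SV40 large T antigen. All cells were in a custom DMEM with dialyzed fetal bovine serum. The sufficient medium (Suff) held every amino acid at the usual concentration, and the Arg-, Leu- and Met- media lacked arginine, leucine or methionine. According to the methods, the plated cells grew overnight before the switch to these media, in which they stayed until harvest. Each medium gave 1 library from cells pretreated with cycloheximide (CHX), a drug that arrests elongating ribosomes, and 1 library from cells without it, which made 8 libraries without replicates, so that the spread between cultures is unknown, and no difference below was tested. Ribosome profiling counts the mRNA fragments that ribosomes protect from RNase I, and with no RNA-seq analysed beside it, the amount of an mRNA and the number of ribosomes on it cannot be told apart.

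The libraries without CHX held 1302523 to 3139745 reads on coding sequences, and those with CHX held 538222 (Met-) to 6434043 (Leu-). The values are RPKM, reads scaled to the length of the coding sequence and to the reads of the library, so each is a share of its own library. The lowest listed transcript had 5 reads in every library without CHX and 64 reads in every library with CHX. In consequence 34 of the 36 mRNAs were listed in each library without CHX, but 22 (Suff), 32 (Arg-), 33 (Leu-) and 11 (Met-) were listed with CHX. An unlisted mRNA has no value here, and being unlisted did not always go with a low level, since ATP6V0C was listed in no library with CHX at 108 to 161 RPKM without it, and PSAP in no library without CHX at 68.3 to 446 RPKM with it. NEFL and NEFM, neurofilament genes that this cell line expresses, were listed in 7 and 8 of the libraries. Of the kidney lineage genes, EYA1 lay between 3.40 and 11.2 RPKM and LHX1 between 2.61 and 7.55 RPKM without CHX, and PAX2 was listed in the Leu- and Met- libraries without CHX only. ALB, PTPRC, MYOD1, CD14 and PECAM1, which mark other cell types, were listed in none, while COL1A1 lay between 1.59 and 4.19 RPKM without CHX and at 20.2 RPKM in the sufficient library with CHX.

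Lysosomes degrade proteins, lipids and glycans with hydrolases that need an acidic lumen. The V-ATPase keeps the lumen acidic: its cytosolic V1 sector hydrolyses ATP and its membrane-bound V0 sector carries protons across, and the sectors come apart and reassemble as nutrients change. The lysosomal surface is also where amino acids activate mTORC1, with the V-ATPase, the Rag GTPases and SLC38A9, which responds to luminal arginine, among the parts of that machinery. When mTORC1 is inactive, TFEB and TFE3 enter the nucleus and bind a short palindrome (the CLEAR element) in the promoters of many lysosomal genes.

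That palindrome is shown because it is known from lysosomal promoters and the selection did not use it. In RefSeq promoters (GRCh38.p14, 250 bases before to 50 bases after the gene start, both strands), 27 of the 36 genes had a window. The E-box CACGTG occurred in 9 of them (33.3%), against 8.77% of all 27305 promoters, and the longer palindrome TCACGTGA, which contains that E-box, occurred in 6 (22.2%) against 1.18% of all promoters. Among 96 promoters of other lysosomal genes listed in the pathway groups below, 9 (9.38%) held TCACGTGA. The windows of 30 bases around 1 match in each of the 6 promoters are printed 5′ to 3′ on the strand of the gene, with the palindrome in capitals.
ATP6V1G1: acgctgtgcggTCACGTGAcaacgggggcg
ATP6V0D1: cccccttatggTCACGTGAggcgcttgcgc
CTSA: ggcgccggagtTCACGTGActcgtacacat
GAA: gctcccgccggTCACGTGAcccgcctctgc
LAMP1: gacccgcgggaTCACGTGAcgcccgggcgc
MCOLN1: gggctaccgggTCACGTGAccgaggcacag
These windows lie at chr9:114587699-114587728 (+ strand), chr16:67481199-67481228 (- strand), chr20:45891298-45891327 (+), chr17:80101538-80101567 (+), chr13:113297199-113297228 (+) and chr19:7522598-7522627 (+), in the order printed. The palindromes began between 15 and 60 bases before the gene start, and GAA, LAMP1 and MCOLN1 each held a further copy. None of the 3 MiT factor promoters held either motif in these windows. A match of letters is a description only and does not show that a factor binds there. No log2 ratio of these 6 mRNAs to sufficient medium reached 2-fold without CHX. They ranged from -0.70 (CTSA, Met-) to 0.64 (GAA, Arg-). Of all genes, 8.23% (Arg-), 6.85% (Leu-) and 20.2% (Met-) were higher and 5.95%, 2.06% and 5.34% lower. With CHX, LAMP1 was higher in Arg- and Leu- medium (1.03 and 1.03). It was also higher in Met- medium (1.85), where it could be listed only if higher. ATP6V1G1 was lower in Met- medium with CHX (-1.68). ATP6V0D1 stayed within 2-fold with CHX, and CTSA, GAA and MCOLN1 could not be compared. Whether the motif goes with the ratio was not tested.

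Each starved library was set against the sufficient library of the same CHX series, as log2((RPKM + 1)/(RPKM in Suff + 1)), over genes listed in both with a mean of at least 10 RPKM. Without CHX, few of the lysosomal mRNAs differed by 2-fold or more, and they did so in both directions. In Arg- medium 4 of 32 compared mRNAs were higher and 3 lower, beside 8.23% of all 7448 genes higher and 5.95% lower. In Leu- medium 1 of 31 was higher and 1 lower, beside 6.85% and 2.06% of all 7558 genes. In Met- medium 5 of 33 were higher and 2 lower, beside 20.2% and 5.34% of all 7884 genes. The higher counts include NPC1 and SLC38A9 in Arg- and NPC1, SLC38A9 and MITF in Met- medium, which passed the minimum only through the starved library and so had to be higher in it. These counts are small, and nothing is read from them against the shares of all genes.

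The median log2 ratio of the lysosomal mRNAs without CHX was -0.18 in Arg-, 0.02 in Leu- and 0.04 in Met- medium, beside -0.02, 0.14 and 0.32 over all genes. The median of all genes is itself off 0 in Leu- and Met- medium. Relative to it, 13 of 32, 10 of 31 and 11 of 33 lysosomal mRNAs lay above. Centred on it, the Met- counts became 4 higher and 6 lower, the 6 being ATP6V1D, ATP6V1E1, CTSA, CTSB, GLA and CD63. The 31 mRNAs with a recovered whole number of reads in all 4 libraries took 0.362% of the reads in sufficient medium (95% exact binomial interval 0.355 to 0.368). They took 0.320% (0.311 to 0.328) in Arg-, 0.346% (0.337 to 0.356) in Leu- and 0.347% (0.337 to 0.357) in Met- medium. The share was lowest in Arg- medium, where its interval did not overlap the others, and these intervals cover counting error only.

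**Figure D1:**
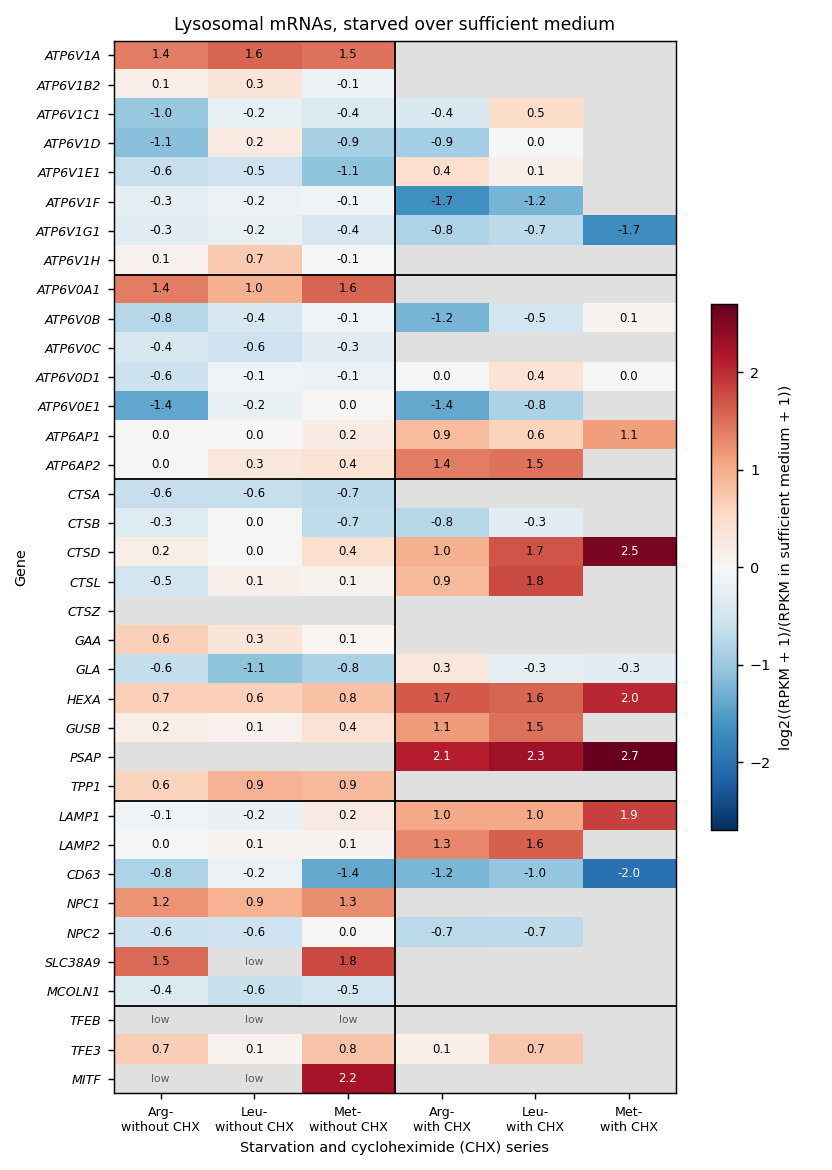
Log2 ratio to sufficient medium, log2((RPKM + 1)/(RPKM in Suff + 1)), of each lysosomal gene (rows, grouped from top to bottom as V1 sector, V0 sector and accessory, hydrolases, membrane and lipid transfer, and MiT factors) in the 6 comparisons (columns, 1 library per condition). Grey cells had no listed value in 1 of the libraries, and "low" marks a mean under 10 RPKM. ATP6V1A is high in the 3 columns without CHX, while CTSD, HEXA and PSAP are high in the columns with CHX.

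The V1 sector, which holds the catalytic head of the pump, had 8 of 8 subunits compared without CHX. ATP6V1A, the catalytic A subunit (gene at chr3:113746770-113812056, + strand, GENCODE 44 on GRCh38), was the only member of the whole group that was 2-fold or more higher in all 3 starvations without CHX. It stood at 39.3 RPKM in sufficient, 103 in Arg-, 119 in Leu- and 110.2 in Met- medium, from 229, 309, 331 and 266 reads. All 3 starved libraries were thus above the sufficient library, with log2 ratios of 1.37 (Arg-), 1.58 (Leu-) and 1.46 (Met-). The counting intervals of the plain RPKM ratio were 1.14 to 1.65, 1.35 to 1.85 and 1.23 to 1.75 on the log2 scale. Of 31 lysosomal mRNAs compared in all 3 starvations, this was 1 (3.23%) against 2.60% of 7182 genes, and the 3 ratios share the same sufficient library. With CHX, ATP6V1A was not listed in sufficient or Met- medium and stood at 51.8 RPKM in Arg- and 37.4 RPKM in Leu- medium, while 64 reads in the sufficient library would have been 13.5 RPKM.

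Its partner in the catalytic ring, ATP6V1B2, varied between 52.5 and 73.1 RPKM over the 4 libraries without CHX, a 1.39-fold range. The A and B subunits are present in equal number in the assembled pump. Without CHX, ATP6V1A lay below ATP6V1B2 in sufficient medium (39.3 against 57.6 RPKM) and above it in each starved library. With CHX, ATP6V1A lay below ATP6V1B2 in Arg- (51.8 against 81.0 RPKM) and Leu- medium (37.4 against 62.1 RPKM). Neither was listed in sufficient or Met- medium with CHX. ATP6V1H, a regulatory subunit that inhibits free V1, was between 33.8 and 57.5 RPKM, highest in Leu- medium.

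ATP6V1D, ATP6V1C1 and ATP6V1E1 were each lower by 2-fold or more in 1 starvation without CHX. ATP6V1D, the central rotor shaft, stood at 106 RPKM in sufficient, 47.6 in Arg-, 125 in Leu- and 56.8 in Met- medium. It was low in Arg- (log2 ratio -1.14, counting interval -1.59 to -0.73 from 57 reads) and just within 2-fold in Met- medium (-0.89). ATP6V1C1, which bridges the head to V0, stood at 69.3, 33.5, 60.5 and 52.8 RPKM in the same order. Its Arg- ratio of -1.03 (counting interval -1.47 to -0.64 from 62 reads) lies at the edge of 2-fold. With CHX, ATP6V1D was at 111, 58.7 and 110.1 RPKM in Suff, Arg- and Leu- medium, so Arg- was again the lowest at -0.91, and ATP6V1C1 was at 42.3, 31.7 and 60.2 RPKM.

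ATP6V1E1, a peripheral stalk subunit, stood at 345 RPKM in sufficient, 222 in Arg-, 235 in Leu- and 162 in Met- medium without CHX, and was past 2-fold only in Met- (log2 ratio -1.08, counting interval -1.36 to -0.83). With CHX it went the other way in direction but within 2-fold, from 154 RPKM in sufficient to 210.2 in Arg- and 169 in Leu- medium. ATP6V1G1, the stalk partner of the E subunit, had the highest level of the V1 sector, 470.2 RPKM in sufficient, 384 in Arg-, 408 in Leu- and 344 in Met- medium. All its ratios without CHX were within 2-fold. With CHX it stood at 1125, 629, 689 and 352 RPKM, the last from 67 reads, so that Met- was lower by 1.68 on the log2 scale (counting interval of the plain ratio -2.06 to -1.32). ATP6V1F varied only 1.20-fold without CHX (299 to 359 RPKM), but with CHX it was at 795 RPKM in sufficient, 253 in Arg- and 334 in Leu- medium, log2 ratios of -1.65 and -1.25.

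In the V0 sector, ATP6V0A1, the membrane subunit that forms the proton path with the c ring, was higher in starvation without CHX as ATP6V1A was. It stood at 16.4 RPKM in sufficient, 44.6 in Arg-, 32.9 in Leu- and 50.6 in Met- medium, from 130, 181, 124 and 166 reads. Every starved library was above the sufficient one, with log2 ratios of 1.39, 0.96 and 1.57. The Leu- ratio was just short of 2-fold on the scale with a pseudocount, and without the pseudocount it lay at 2-fold. With CHX it was listed only in Arg- (25.1 RPKM) and Leu- medium (12.8 RPKM).

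ATP6V0E1, a small membrane subunit of 243 coding nucleotides, was the only V-ATPase mRNA past 2-fold the same way in both CHX series. Without CHX it stood at 267 RPKM in sufficient, 101 in Arg-, 234 in Leu- and 275 in Met- medium, and with CHX at 260.4, 99.4 and 145 RPKM in Suff, Arg- and Leu- medium. The Arg- library was the lowest of each series, with log2 ratios of -1.39 without CHX (40 reads, counting interval -1.93 to -0.91) and -1.38 with CHX (121 reads, -1.74 to -1.04). Its Leu- ratios were -0.19 and -0.84. ATP6V0B, a proteolipid of the c ring and the V0 mRNA with the highest RPKM in sufficient medium, stood at 276 RPKM in sufficient, 162 in Arg-, 203 in Leu- and 259 in Met- medium. With CHX it stood at 381, 160.1, 267 and 403 RPKM, so that its Arg- ratio was -0.76 without CHX and -1.25 with it.

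The other proteins of the V0 group stayed within 2-fold without CHX. ATP6V0C, the main c-ring proteolipid, lay between 108 and 161 RPKM. ATP6V0D1, which couples the rotor to the c ring, was between 90.0 and 135 RPKM. ATP6AP1 lay between 179 and 206 RPKM and ATP6AP2, the (pro)renin receptor, between 156 and 206 RPKM, both accessory proteins needed to assemble V0. With CHX the accessory mRNAs were higher in starvation: ATP6AP2 stood at 49.8 RPKM in sufficient, 132 in Arg- and 139 in Leu- medium (log2 ratios 1.38 and 1.46). ATP6AP1 stood at 125, 228, 189 and 274 RPKM, past 2-fold only in Met- medium (1.13), where another of its transcripts was used than in the sufficient library. In the sufficient library with CHX neither value lay on a whole number of reads, so no counting interval is given for these ratios.

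Over the 7 V0 and accessory mRNAs without CHX, the highest over the lowest was 16.8-fold in sufficient, 4.08-fold in Arg-, 7.10-fold in Leu- and 5.42-fold in Met- medium, with ATP6V0A1 lowest each time. Without ATP6V0A1 the range was 2.04-fold, 2.02-fold, 2.15-fold and 2.26-fold in the same order, which shows no narrowing over the other 6. Over the 8 V1 mRNAs it was 13.4-fold, 11.5-fold, 7.09-fold and 10.2-fold. Subunits differ in copies per pump, so equal levels are not a reference.

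**Figure D2:**
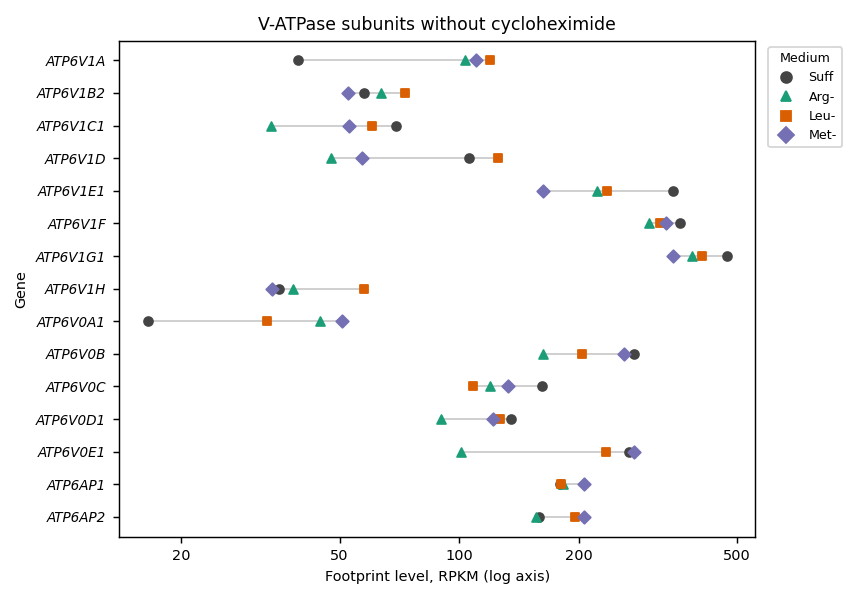
Footprint levels (RPKM, log axis) of the 15 V-ATPase subunits and accessory proteins in the 4 libraries without CHX, 1 point per library, with a grey line from the lowest to the highest. The sufficient point lies to the left of the 3 starved points for ATP6V1A and ATP6V0A1, and the Arg- point of ATP6V0E1 lies at 101 RPKM, left of its other 3.

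Among the hydrolases without CHX, 9 of 11 were compared, and only GLA was past 2-fold. GLA, alpha-galactosidase A, had the highest level of the hydrolases in sufficient medium and stood at 347, 223, 163 and 193 RPKM in Suff, Arg-, Leu- and Met- medium. All 3 starved libraries were below the sufficient one, with log2 ratios of -0.64, -1.09 (counting interval of the plain ratio -1.28 to -0.92) and -0.85. With CHX a shorter transcript of GLA was listed, at 317, 391, 262 and 259 RPKM, and no ratio reached 2-fold.

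The remaining hydrolases without CHX differed little between media. CTSD, the main aspartic protease of lysosomes, lay between 219 RPKM (Suff) and 294 (Met-). TPP1, a tripeptidyl peptidase, lay between 26.0 RPKM (Suff) and 50.9 (Leu-), and HEXA, the alpha subunit of beta-hexosaminidase, between 25.9 (Suff) and 45.4 RPKM (Met-). For these mRNAs the sufficient library was the lowest, with TPP1 at log2 ratios of 0.59, 0.94 and 0.88 and HEXA at 0.65, 0.65 and 0.79. CTSA, the protective carboxypeptidase, went the other way, from 46.6 RPKM in sufficient to 28.2 to 29.9 RPKM in the starved libraries. CTSB and CTSL, cysteine proteases, lay between 44.4 and 74.0 and between 65.7 and 104 RPKM. GUSB, beta-glucuronidase, lay between 35.7 and 46.7 RPKM and GAA, acid alpha-glucosidase, between 16.0 and 25.6 RPKM.

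With CHX the hydrolases stood apart from their own values without it. Of the 7 compared in Arg- and in Leu- medium, 3 and 5 were 2-fold or more higher and none lower, as were 3 of 4 in Met- medium, beside 16.6%, 12.1% and 46.7% of all genes higher and 19.7%, 7.28% and 9.79% lower. Their median log2 ratio was 0.96 in Arg-, 1.57 in Leu- and 2.29 in Met- medium, beside -0.23, 0.02 and 0.89 over all genes. The further hydrolases and cofactors counted below had lower medians with CHX, -0.23, 0.19 and 1.26, over 13, 15 and 7 compared. The 3 higher in Met- medium, CTSD, HEXA and PSAP, could be listed there only if higher, so their Met- direction is not read as a result. The mRNAs named with CHX values in this and the next paragraphs were chosen after those values were seen.

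PSAP, whose product is cut into the saposins that activate sphingolipid hydrolases, had the highest ratios of the group. It stood at 68.3 RPKM in sufficient, 301 in Arg-, 339 in Leu- and 446 in Met- medium, from 275, 2373, 3427 and 377 reads. Each starved library was more than 4-fold above the sufficient one, with log2 ratios of 2.12, 2.29 and 2.69 (counting interval of the last, 2.48 to 2.93). CTSD stood at 90.7, 177, 297 and 534 RPKM, with log2 ratios of 0.96, 1.70 and 2.54. HEXA stood at 34.5, 110.4, 104 and 145 RPKM, with ratios of 1.65, 1.57 and 2.04. CTSL (29.7, 54.9 and 105 RPKM in Suff, Arg- and Leu-) and GUSB (15.2, 34.8 and 44.2 RPKM) were also lowest in sufficient medium, each from 76 reads there. CTSB and GLA were not lowest in sufficient medium, with CTSB at 121 RPKM in sufficient, 70.3 in Arg- and 99.2 in Leu- medium, and GLA as given above.

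For 3 of these mRNAs the sufficient library with CHX was low beside that without it. CTSD was at 90.7 RPKM in the sufficient library with CHX and 219 without it, CTSL at 29.7 and 94.4, and GUSB at 15.2 and 35.7 RPKM, each on the same transcript, while CTSB was at 121 and 72.1 RPKM. The libraries differ in drug and in several processing steps, so this difference cannot be assigned to either. GAA, TPP1 and CTSA were not listed in the sufficient library with CHX. In that library 64 reads would have been 8.75 RPKM for GAA, which was listed at 20.2 (Arg-), 20.5 (Leu-) and 43.6 RPKM (Met-), and 26.0 RPKM for TPP1, listed at 34.5 (Arg-) and 49.1 RPKM (Leu-).

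**Figure D3:**
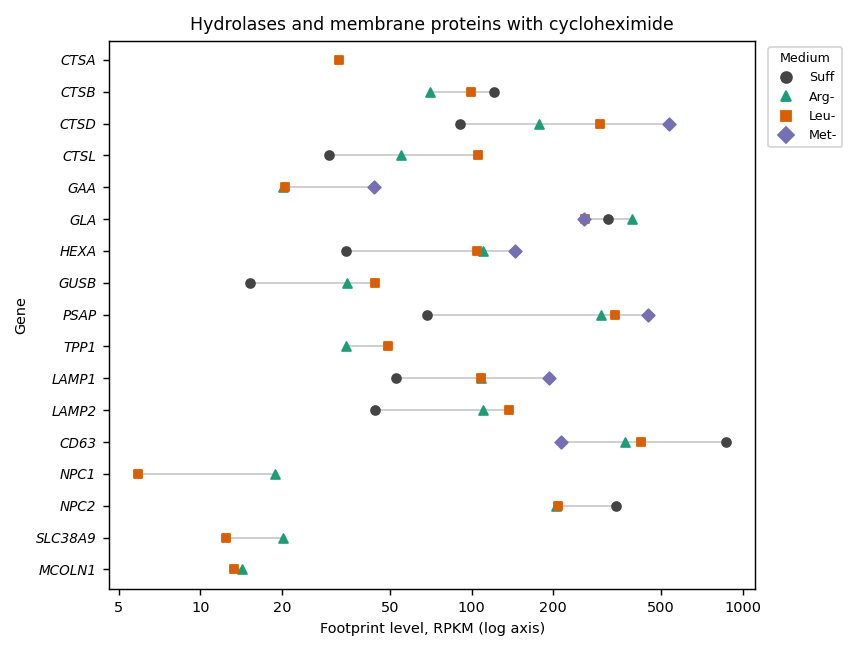
Footprint levels (RPKM, log axis) of hydrolases and of membrane and lipid-transfer proteins in the 4 libraries with CHX, 1 point per library where listed, with a grey line from the lowest to the highest. For CTSD, CTSL, HEXA, GUSB, PSAP, LAMP1 and LAMP2 the sufficient point is the lowest, and for CD63, NPC2 and CTSB it is the highest.

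Among the membrane proteins, CD63, a tetraspanin of late endosomes and lysosomes, was the member most often lower. Without CHX it stood at 384 RPKM in sufficient, 215 in Arg-, 344 in Leu- and 147 in Met- medium, from 864, 248, 369 and 137 reads. The sufficient library was the highest, and Met- was past 2-fold at a log2 ratio of -1.38 (counting interval of the plain ratio -1.66 to -1.13). With CHX it stood at 868, 367, 422 and 213 RPKM, from 1587, 1313, 1940 and 82 reads, with log2 ratios of -1.24, -1.04 and -2.02. The sufficient library was the highest here too, and CD63 was the only lysosomal mRNA lower by 2-fold or more in all 3 starvations with CHX, among 10 compared in all 3, beside 2% of 1850 genes.

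LAMP1 and LAMP2, the most abundant glycoproteins of the lysosomal membrane, did not differ by 2-fold without CHX, at 87.4 to 118 RPKM and 106 to 118 RPKM. With CHX, LAMP1 stood at 52.8, 108, 109 and 193 RPKM (log2 ratios 1.03, 1.03 and 1.85) and LAMP2 at 44.1, 110.0 and 138 RPKM in Suff, Arg- and Leu- medium (1.30 and 1.62). Both were lowest in the sufficient library. HEXA, PSAP and LAMP1 were the 3 lysosomal mRNAs higher in all 3 starvations with CHX (30% of 10, beside 10% of 1850 genes). The lowest read count listed in Met- medium with CHX was worth 75.4 RPKM at 1578 nt and 96.7 RPKM at 1230 nt. HEXA (1587 nt, 34.5 RPKM in sufficient medium) could thus be compared in Met- medium only if more than 2-fold higher. PSAP (1572 nt, 68.3 RPKM) and LAMP1 (1251 nt) could be compared there only if higher. The Met- direction of these 3 mRNAs is therefore not read as a result.

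NPC1 and SLC38A9, with 6.81 and 6.61 RPKM in sufficient medium, passed the mean of 10 RPKM without CHX, where they did, only through the starved library. NPC1, which exports cholesterol from lysosomes, stood at that 6.81 RPKM in sufficient, 17.0 in Arg-, 13.9 in Leu- and 17.6 in Met- medium, from 82, 105, 80 and 88 reads. Its log2 ratios were 1.20, 0.94 and 1.25 (counting intervals of the plain ratio 0.89 to 1.75, 0.57 to 1.50 and 0.92 to 1.82). NPC1 was compared only because its starved values were higher, so these intervals are no support for the direction. Its coding exons overlap those of RMC1 on the opposite strand, and whether the read counting used strand is not stated. SLC38A9, the arginine-responsive transporter, stood at 6.61, 21.0, 13.1 and 25.0 RPKM, from 35, 57, 33 and 55 reads. Arg- and Met- were past 2-fold (1.53 and 1.77) and Leu- stayed under the mean of 10 RPKM, with a ratio of 0.89 and an interval of the plain ratio from 0.25 to 1.71. With CHX, SLC38A9 was listed only in Arg- (20.2 RPKM) and Leu- medium (12.5 RPKM), and NPC1 likewise at 18.9 and 5.92 RPKM. In the sufficient library with CHX, 64 reads would have been 14.9 RPKM for SLC38A9 and 6.52 RPKM for NPC1.

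MCOLN1, the lysosomal calcium channel, differed from NPC1 and SLC38A9 in that sufficient medium gave its highest level, 18.5 RPKM, and the starved media 11.9 to 13.9 RPKM from 29 to 39 reads. NPC2, the luminal partner of NPC1, lay between 88.1 and 136 RPKM without CHX, and with CHX at 341, 205 and 209 RPKM in Suff, Arg- and Leu- medium, ratios of -0.73 and -0.70. Its coding exons overlap ISCA2 on the opposite strand.

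TFEB had the lowest level of the group in every library without CHX. It stood at 3.58, 3.68, 4.75 and 3.18 RPKM in Suff, Arg-, Leu- and Met- medium without CHX, under the mean of 10 RPKM throughout, and was listed in no library with CHX. TFE3, the most abundant of the 3, stood at 15.9, 25.9, 17.0 and 27.5 RPKM without CHX, from 86, 72, 44 and 62 reads. Its ratios of 0.67 (Arg-), 0.10 (Leu-) and 0.76 (Met-) were within 2-fold, and with CHX it was at 17.2, 19.0 and 29.2 RPKM in Suff, Arg- and Leu- medium. MITF stood at 4.63, 11.8, 9.30 and 25.7 RPKM, with a log2 ratio of 2.25 in Met- medium. It passed the mean of 10 RPKM in Met- medium only, through the starved library, and its values did not lie on whole reads of the coding length used and have no counting interval. With CHX, MITF was listed at 8.44 RPKM in Arg- and 8.97 RPKM in Leu- medium only.

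With CHX larger shares than without it were past 2-fold, in the group and over all genes alike, and fewer mRNAs were compared. In Arg- medium 6 of 22 compared mRNAs were 2-fold or more higher and 4 lower, beside 16.6% and 19.7% of all 5074 genes. In Leu- medium 8 of 22 were higher and 2 lower, beside 12.1% and 7.28% of all 5208 genes. In Met- medium only 10 could be compared, of which 5 were higher and 2 lower, beside 46.7% and 9.79% of all 1890 genes. Of the higher ones in Met- medium, CTSD, HEXA, PSAP and LAMP1 could be listed there only if higher. The lower ones were ATP6V1F, ATP6V0B, ATP6V0E1 and CD63 in Arg-, ATP6V1F and CD63 in Leu-, and ATP6V1G1 and CD63 in Met- medium. The medians were 0.22, 0.44 and 0.61, beside -0.23, 0.02 and 0.89 over all genes. Relative to the median of all genes, the Met- counts became 3 higher and 3 lower and the Arg- counts 9 higher and 4 lower.

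Between the 2 CHX series, which share no library, 15 of 21 lysosomal mRNAs (71.4%) had ratios of the same sign in Arg- and 15 of 21 in Leu- medium, beside 71.1% and 71.2% of all genes. In Met- medium it was 8 of 9, beside 70.5%, but CTSD, HEXA and LAMP1 could be listed there with CHX only if higher. Past 2-fold the same way in both were ATP6V0E1 in Arg- and CD63 in Met- medium, both lower, and none was higher in both, where all genes gave 2.60% higher and 3.84% lower in Arg- and 10.2% and 2.89% in Met- medium. LAMP1, LAMP2 and CTSL show how the series part: their Arg- ratios were -0.10, -0.05 and -0.52 without CHX and 1.03, 1.30 and 0.87 with it. Of the 21 mRNAs listed in the sufficient libraries of both series, 7 were represented by another transcript in the other series, among them GLA, HEXA, LAMP2 and NPC2.

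Longer mRNAs of the group tended to have higher ratios, as did longer mRNAs over all genes. Across the lysosomal mRNAs, Spearman's rho between the log2 ratio and coding length was 0.75 in Arg- (n = 32), 0.55 in Leu- (n = 31) and 0.59 in Met- medium (n = 33) without CHX, and 0.73 (n = 22), 0.80 (n = 22) and 0.87 (n = 10) with CHX. Over all genes rho was 0.36, 0.31 and 0.44 without and 0.47, 0.42 and 0.54 with CHX. These values describe mRNAs of the same pair of libraries, which share depth and footprint preparation, and the 3 comparisons of a series share the sufficient library. In Met- medium with CHX the 4 members of at least 1200 nt, CTSD, LAMP1, HEXA and PSAP, could be listed only if higher. The rho of 0.87 there is therefore not read as a result. Without CHX, NPC1 and, where compared, SLC38A9 and MITF (3834, 1683 and 1557 nt) passed the minimum mean only through the starved library. These long mRNAs thus had to be higher in it. Without CHX the members under 600 nt are V-ATPase subunits such as ATP6V0E1, ATP6V1G1 and ATP6V1F, and the long ones include ATP6V0A1 (2514 nt) and NPC1 (3834 nt). With CHX the short members include NPC2, represented there by a transcript of 375 nt.

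Without CHX, coding sequences of at least 1200 nt had median log2 ratios of 0.17 in Arg-, 0.12 in Leu- and 0.38 in Met- medium, beside 0.20, 0.30 and 0.62 over all genes of that length. The 10 members from 600 to under 1200 nt had medians of -0.61, -0.12 and -0.27, beside -0.18, 0.05 and 0.10, and none of the 10 was above 0 in Arg- medium. In both classes the members thus lay below all genes of their length. With CHX the long members were higher than all genes of their length: the 7 in Arg- medium had a median of 1.15 beside 0.37, the 7 in Leu- medium 1.57 beside 0.38, and the 4 in Met- medium 2.29 beside 1.49. All 7 ratios in Arg- and all 7 in Leu- medium were above 0, as were 1325 of 2106 and 1455 of 2141 over all genes of that length. The 4 in Met- medium were CTSD, LAMP1, HEXA and PSAP, at 90.7, 52.8, 34.5 and 68.3 RPKM in sufficient medium. The lowest read count listed in Met- medium with CHX was worth 96.7 RPKM at 1230 nt and 75.4 RPKM at 1578 nt. These 4 mRNAs, of 1236, 1251, 1587 and 1572 nt, could thus be listed only if higher, and their sign is not read as a result. The 4 members under 600 nt had medians of -1.11 (Arg-) and -0.78 (Leu-) with CHX, beside -0.77 and -0.44. The part that length plays in the ratios was not tested.

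**Figure D4:**
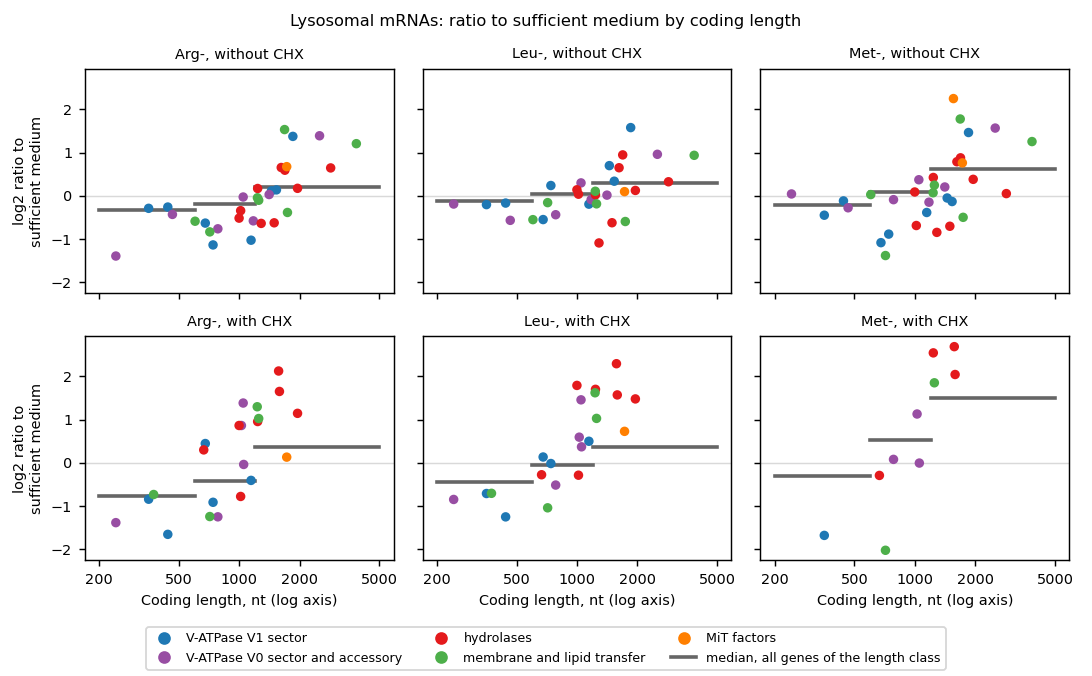
Log2 ratio to sufficient medium against coding length (nt, log axis) for each lysosomal mRNA compared, coloured by its list, in the 6 comparisons with 1 library per condition. Grey bars are medians of all genes in classes of under 600 nt, 600 to under 1200 nt, and 1200 nt or more. The bars rise from left to right in each panel. The lysosomal mRNAs rise less evenly, with the median of the middle class below that of the shortest in Arg- and Met- medium without CHX.

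The share of codons for the missing amino acid went with the ratio weakly. In Arg- medium without CHX, Spearman's rho with the percentage of arginine codons was 0.25 over the lysosomal mRNAs and 0.03 over all genes. In Leu- medium it was -0.28 with leucine codons (-0.001 over all genes), and in Met- medium -0.09 with methionine codons (-0.08 over all genes).

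The other genes of the lysosomal pathway, taken from lists of symbols, were counted in the same way. The shares of all genes past 2-fold without CHX were 8.23% higher and 5.95% lower in Arg-, 6.85% and 2.06% in Leu-, and 20.2% and 5.34% in Met- medium. Of 40 further hydrolases and cofactors, 28 or 29 were compared, with 1 higher and 3 lower in Arg-, none in Leu-, and 3 higher and 2 lower in Met- medium, at medians of -0.05, -0.02 and 0.36, beside -0.02, 0.14 and 0.32 over all genes. Of 36 further membrane proteins, 23 or 24 were compared, with 1 higher and 1 lower in Arg-, none in Leu-, and 4 higher and 1 lower in Met- medium. None of the 6 compared among 19 other V-ATPase subunits and assembly factors reached 2-fold in any starvation without CHX, and with CHX 1 of 3 was higher and 1 lower in Arg- medium. With CHX, 13, 15 and 7 of the further hydrolases were compared in Arg-, Leu- and Met- medium, of which 2, 3 and 4 were higher and 1, 0 and 0 lower. Of the further membrane proteins 12, 12 and 5 were compared with CHX, of which 0, 1 and 2 were higher and 5, 0 and 1 lower. The shares of all genes with CHX were 16.6%, 12.1% and 46.7% higher and 19.7%, 7.28% and 9.79% lower.

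Only ACP2 and M6PR of these lists were past 2-fold the same way in both CHX series. ACP2, lysosomal acid phosphatase, stood at 25.3, 39.5, 31.0 and 54.3 RPKM in Suff, Arg-, Leu- and Met- medium without CHX, and at 21.2, 51.3, 57.6 and 108 RPKM with it. It was highest in Met- medium in both series, with log2 ratios of 1.07 and 2.30, where 10.2% of all genes were higher in both series. With CHX, 64 reads are worth more RPKM in Met- than in sufficient medium (for ATP6V1A 64.2 beside 13.5 RPKM). An mRNA as low as ACP2 in sufficient medium was likely to be listed in Met- medium only if higher. Its direction with CHX is therefore not read as a result. M6PR, the cation-dependent mannose 6-phosphate receptor that carries hydrolases from the Golgi, stood at 98.9, 38.7, 69.7 and 72.7 RPKM without CHX, and at 160, 58.4 and 93.0 RPKM in Suff, Arg- and Leu- medium with it. It was lowest in Arg- medium in both series, with log2 ratios of -1.33 and -1.44, where 3.84% of all genes were lower in both series. Among 18 genes of sorting to lysosomes, 13, 14 and 13 were compared without CHX, with 1 higher and 1 lower in Arg-, 2 higher in Leu- and 2 higher in Met- medium, beside 8.23%, 6.85% and 20.2% of all genes higher and, in Arg- medium, 5.95% lower. With CHX 5, 5 and 1 of them were compared, with 2 higher and 1 lower in Arg-, 1 higher in Leu- and 1 higher in Met- medium, beside 16.6%, 12.1% and 46.7% of all genes higher and, in Arg- medium, 19.7% lower.

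Of 13 regulators and reported targets of the MiT factors, 5, 6 and 6 were compared without CHX. BHLHE40, a transcriptional repressor, was higher in all 3 starvations (10.8 RPKM in sufficient and 23.6, 25.3 and 27.3 RPKM in Arg-, Leu- and Met- medium). Of 7182 genes compared in all 3, 2.60% were, and the 3 ratios share the same sufficient library. In Met- medium 4 of the 6 were higher, BHLHE40, FLCN, RRAGC and UVRAG, beside 20.2% of all genes, and they are named because their values were seen. A gene under 10 RPKM in sufficient medium could be compared only if higher in the starved library. The levels of FLCN and UVRAG are not given here, so this limit may hold for them. FLCN and RRAGC act at the lysosomal surface in amino acid signalling to mTORC1, and RRAGC stood at 20.2 RPKM in sufficient and 61.4 RPKM in Met- medium.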

How the data were processed

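Ribosome-protected fragments of HEK293T cells were prepared from pooled sucrose gradient fractions and sequenced. According to the methods, the authors trimmed adaptors and, with Trimmomatic, low-quality ends, kept fragments by length, aligned them to the human transcriptome (GRCh38) with Bowtie without mismatches and used uniquely mapped reads; the submitters' processing notes also name cutadapt. The deposited tables give RPKM as the authors computed it for each Ensembl transcript, 1 library per condition, with no replicates pooled. Names of the files without CHX point to removal of duplicate reads, which the methods do not state, and the series also differ in the lowest read count listed and in whether the stop codon counts towards length, so that drug and processing cannot be told apart. Unique mapping leaves out footprints shared by near-identical copies. Coding exons of ATP6V0C, CTSD, HEXA and MCOLN1 overlap those of unnamed genes on the same strand, so their reads may be split.

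Transcripts were matched to GENCODE release 44, which held 96.7% to 97.1% of those listed in each library; others stayed unnamed. RPKM multiplied by coding length lay on whole multiples of 1 read (tolerance 0.01) for 97.2% to 97.4% of matched transcripts, which gave the depth of each library and the reads of each mRNA. The highest transcript of a gene in each library was compared between libraries of 1 series, over genes listed in both with a mean of at least 10 RPKM, as log2 ratios with a pseudocount of 1, which understate changes of low mRNAs. Calls are at 2-fold. With 1 library per condition no test was made, and the CHX series were not used as replicates of each other. Counting intervals are exact 95% intervals of the ratio of the reads without pseudocount, and cover counting error only.

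The 36 genes and the pathway lists were chosen with earlier results of these data known. Values in every library are given for genes past 2-fold the same way in both series of a starvation or past 2-fold without CHX, for the MiT factors, SLC38A9 and the highest mRNA of each list, and of the pathway lists for those past 2-fold in both series; others are given by range, except those singled out after their values were seen (the lysosomal mRNAs named for their values with CHX, and BHLHE40, FLCN, RRAGC and UVRAG). 1 marker gene is not reported here. Each value was also computed with 7 changed settings: 0.1 as pseudocount, 50 RPKM as minimum mean, no filter, unlisted genes as 0, summed transcripts, the same transcript in both libraries, and ratios centred on the median of all genes. Promoters came from RefSeq, and overlaps of coding exons from GENCODE. The scripts were tested on simulated data. They ran in Python 3.11.15 with scipy 1.17.1 and pandas 2.3.3 on numpy 2.4.6, and figures were drawn with matplotlib 3.10.9.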

Additional observations from a re-analysis of the deposited data

How the results depend on the processing

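Of the counts of lysosomal mRNAs past 2-fold without CHX, a minimum mean of 50 RPKM left 1 in place of 4 higher in Arg- and 1 in place of 5 higher in Met- medium, since ATP6V0A1, NPC1, SLC38A9 and MITF fall under that level. A pseudocount of 0.1 gave 2 in place of 1 higher in Leu- medium, and centring on the median of all genes gave 6 in place of 2 lower in Met- medium. With CHX, results rested on how unlisted genes are treated. Counting them as 0 gave medians of 0.87 in place of 0.22 (Arg-), 0.73 in place of 0.44 (Leu-) and -2.02 in place of 0.61 (Met-), with 13 in place of 6 higher in Arg-, 13 in place of 8 higher in Leu- and 12 in place of 2 lower in Met- medium. It also turned the median of the V1 sector in Arg- medium from -0.84 to 0.022. Centring gave medians with CHX of 0.45 (Arg-) and -0.28 (Met-), with 3 in place of 5 higher in Met- medium, and the same transcript in both libraries gave 0.97 in Met- medium, where ATP6AP1 otherwise used different transcripts. Summed transcripts gave a median of 0.76 in place of 0.61 in Met- medium with CHX and no filter on low values gave -0.08 in place of -0.18 in Arg- and 0.07 in place of 0.02 in Leu- medium without CHX, and neither moved a count of calls over all lysosomal mRNAs by over 1.5 times. Reads on the members limited single log2 ratios to a typical counting half-width of 0.205 to 0.336.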
